A study of Mus musculus with 6 samples.

Results

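A block of late-numbered gene models was examined in regulatory T cells taken from mouse melanomas. It took a larger share of gene-assigned reads in RNA precipitated with YTHDF2 than in the total RNA of the lysate. The models carry Ensembl gene identifiers (IDs) numbered 102000 to 104999. All 2797 IDs of the block together took a share of gene-assigned reads that was 3.44 times higher in the YTHDF2 immunoprecipitation (IP) than in the Input. The size of this ratio depends on the denominator. It was 2.19 for the share of all reads and 1.54 relative to reads in no annotated feature. Gene-assigned reads made up 24.8% of all reads in the IP and 38.9% in the Input. The 132 models considered took 0.767% ± 0.0350 (SD, n = 3) of gene-assigned IP reads and 0.163% ± 0.0451 (SD, n = 3) of gene-assigned Input reads. In edgeR's quasi-likelihood test 60 of them (45.5%) rose in the IP and 0 fell, where 4.33% of all genes tested rose and 6.11% fell. Of these 60, 25 had reached the level for inclusion through the IP alone. Among the 53 models of the block that reached it in the Input, 35 rose, against 6.84% of 8490 other IDs. The members were chosen from the files by 2 conditions, the number of the ID and a mean of at least 10 CPM (a model's count per 1e+06 gene-assigned reads) over the 6 libraries. Of the IDs of the block, 1820 had a read in any library and 132 reached this level. They stand among 54446 IDs in all, of which 8658 reached the same level. The ID ENSMUSG00000102869 lies in the block by its number and was left out of the members by the rule. It is counted among the other 8526 IDs at this level.

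Each of the 6 libraries came from live CD45+ CD4+ Foxp3-GFP+ Treg cells that were sorted out of subcutaneous B16F10 tumours, a mouse melanoma line, grown in WT animals. The Input is RNA of 10% of the cell lysate. The IP is the RNA that stayed, after 4 hours and 6 washes, on beads coated with an anti-mouse YTHDF2 antibody. There were 3 IP and 3 Input libraries, numbered 1 to 3 in each group, and the labels do not say whether the numbers stand for separate animals, so p-values rest on the spread of these libraries alone, and that spread may be technical. Libraries of a control precipitation were not analysed here, so a higher level in the IP means abundance relative to the Input. As in any bulk sample, fewer cells that hold a transcript and less of it per cell cannot be told apart in a level. The defining markers of Treg cells and of other cell types could not be looked up, because the files give IDs without symbols and 0 of 49997 rows of the reference gene table hold an Ensembl ID.

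YTHDF2 binds N6-methyladenosine in RNA, mostly in the cytoplasm, and brings bound transcripts to the deadenylation machinery for decay. Most named protein-coding genes received their Ensembl numbers early, and models added later carry higher numbers. Late models are often unspliced transcripts drawn from single sequence records, and many lie within or beside other genes. The block is described as mostly single-exon models. The files hold no exon structure, position or class, so this description was not checked, and no model is given a name, a sequence or a neighbour here. Whether reads of a gene on the opposite strand were counted with a model is not known either, since the sources used here do not give the strand setting of the counting.

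The version of each ID was the 1 feature of the models that the files give and the rule did not use. Ensembl starts a model at version 1 and raises the number when the model is revised. Of the 132 members, 127 (96.2%) stood at version 1, as did 95.1% of all 2797 IDs of the block, against 4.39% of the other 8526 IDs at 10 CPM or more. The members had thus been left as first drawn far more often than other genes of that level, a feature of the block as a whole and not of its abundant IDs. The 5 members with a revised model, at versions up to 6, had a median log2 fold change of 0.68 and none of them was called. The 127 members at version 1 had a median of 2.24, and all 60 calls were among them. The revised members were also lower, with a median level of 15.3 CPM against 22.5 CPM, and of all 55 members at 10 to 20 CPM only 3 were called. With 5 revised members the difference in fold change was not tested.

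For summed reads, the whole block, taken without any condition on level, gave the comparison that owes least to the choice of members. Its 2797 IDs took 1.02% of gene-assigned reads in IP replicate 1, 0.967% in IP replicate 2 and 0.931% in IP replicate 3. The Input shares were 0.329%, 0.281% and 0.238% in replicates 1, 2 and 3. Every IP library lay above every Input library, and the gap between the groups was larger than the range within either. The 95% Clopper-Pearson intervals are narrow, for example 0.326% to 0.332% in Input replicate 1, and cover counting error only. The mean share was 3.44 times higher in the IP. This sum rests mostly on the abundant IDs. The members held on average 59125 of 75071 block reads in the IP and 20484 of 35113 in the Input. The median level of the 2797 IDs was 0.0944 CPM, and 702 (25.1%) had a higher mean in the IP than in the Input. On average 565 had a read in an IP library and 1158 in an Input library, against 17564 and 29649 of all gene IDs. Of the 390 tested, 306 (78.5%) had a log2 fold change above 0, against 46.1% of all genes tested. The 2665 IDs of the block that stayed under 10 CPM took 0.207% ± 0.0118 (SD, n = 3) of IP reads and 0.120% ± 0.00560 (SD, n = 3) of Input reads. In the 3 pairs of libraries with equal number, the IP share of these weak models was 1.60 to 1.87 times that of the Input, and that of the members 3.79 to 5.98 times. The mean over all libraries chose the members, so a model could become one through a high IP alone.

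**Figure D1:**
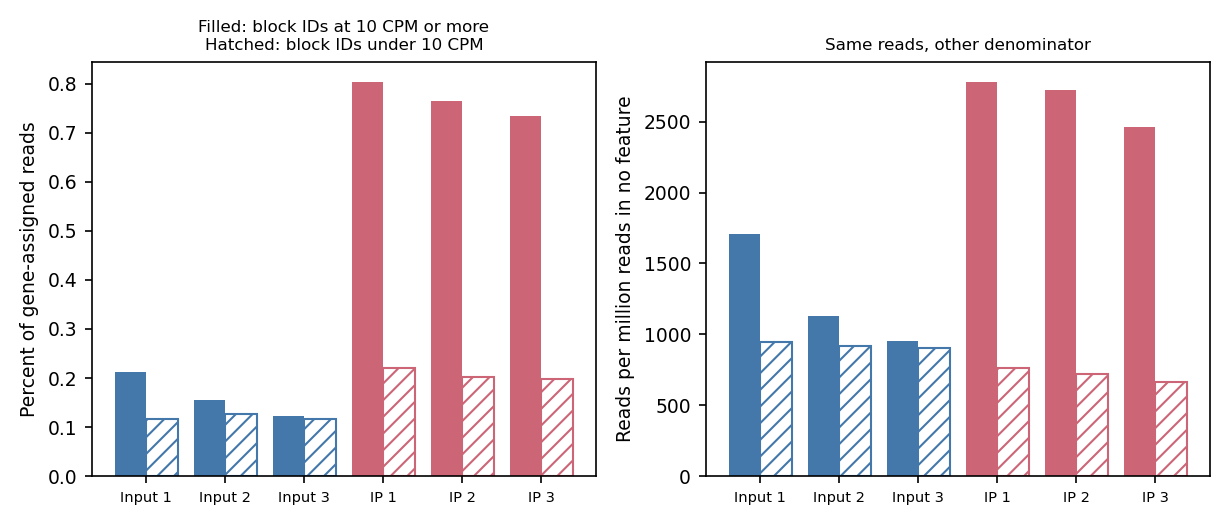
Reads of the block in each library, as a percent of gene-assigned reads (left) and relative to the reads that fell in no annotated feature, scaled as the axis says (right), with 2 bars per library and no error bars. Filled bars are the 132 models at 10 CPM or more and hatched bars the 2665 models under that level, in blue for Input and red for IP. Filled IP bars stand above all filled Input bars in both panels, and hatched IP bars stand above the hatched Input bars on the left and below them on the right. The level that splits filled from hatched bars includes the IP, and the 2 bars of a library sum to the whole block.

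Reads outside annotated genes also differed between the groups, and they bear on the denominator of every share. They made up 71.2% to 72.1% of all reads in the IP libraries and 49.6% to 51.6% in the Input libraries. Counted per 1e+06 of these reads, the members had 2781, 2722 and 2464 reads in IP replicates 1, 2 and 3. The Input values were 1711, 1127 and 956 in the same order. The groups did not overlap on this scale, and the ratio of the means was 2.10, against 4.71 for the share of gene-assigned reads. The whole block, with no split by level, had 3543, 3442 and 3128 reads on this scale in the IP and 2660, 2046 and 1858 in the Input. Again every IP library lay above every Input library, but the ratio of the means was 1.54, against 3.44 for the share of gene-assigned reads. The weak models alone were lower in each IP library, at 715 ± 49.2 (SD, n = 3) against 923 ± 23.7 (SD, n = 3) in the Input, but the split by a mean that includes the IP takes models high in the IP out of them. The part of the reads outside genes in the result was not tested.

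Within the block the reads were spread over many models. The member with the highest level held 8.06% ± 1.71 (SD, n = 3) of the members' IP reads and 7.96% ± 1.01 (SD, n = 3) of their Input reads. The first 5 members by level held 22.5% ± 0.295 and 20.7% ± 2.05 (SD, n = 3 each). Without the first member the ratio of the shares was 4.70, so it did not rest on that model. The level of a member, as the mean over all 6 libraries, ran from 10.2 to 372 CPM with a median of 22.4 CPM, while the other IDs at this level had a median of 43.1 CPM.

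The choice by mean level has to be kept in view for single members. In 81 of the 132, the IP mean was at least 10 CPM and the Input mean was not. In 50 both means reached 10 CPM, and in 1 the Input mean alone did. Members that passed through the IP alone had to differ from the Input, and their direction is no result. The 5 members just inside the limit had means of 10.2 to 10.5 CPM and log2 fold changes of 0.29 to 2.36. The 5 models just outside had means of 9.55 to 9.75 CPM and log2 fold changes of 0.94 to 2.08. The ranges of fold change inside and outside the limit overlapped.

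**Figure D2:**
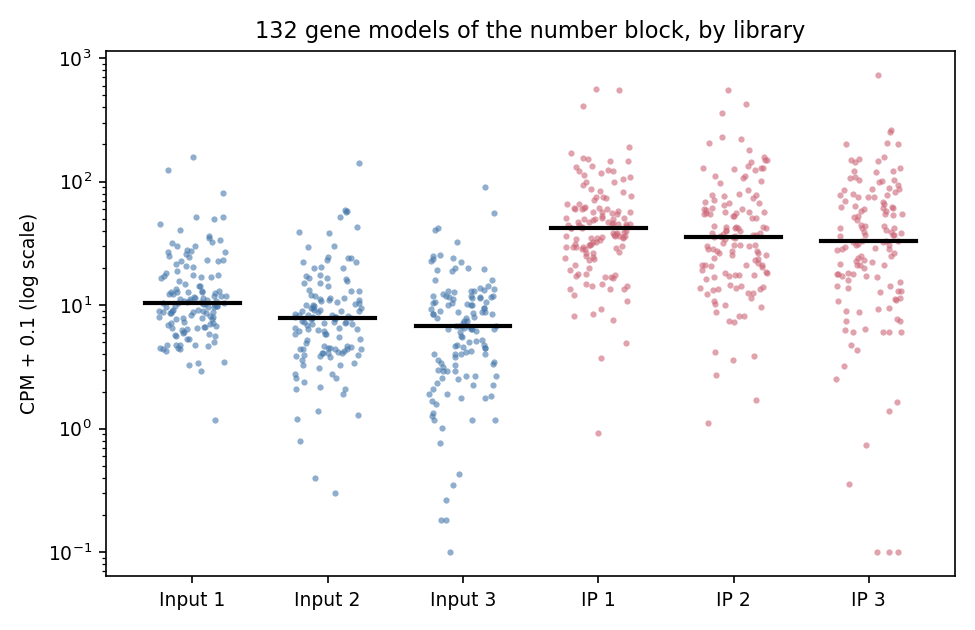
CPM of the 132 models in each library, on a log axis after adding 0.1 so that values of 0 can be drawn. Each point is a model and each black bar the median, which lies at 6.63 to 10.4 CPM in the Input libraries and at 32.9 to 41.9 CPM in the IP libraries.

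The level was next compared library by library. The median member had 41.9, 35.7 and 32.9 CPM in IP replicates 1, 2 and 3. In Input replicates 1, 2 and 3 it had 10.4, 7.73 and 6.63 CPM. Between libraries of equal number, the IP was higher for 127, 126 and 116 of the 132 members in replicates 1, 2 and 3. Among the other IDs at 10 CPM or more the IP was higher for 51.4%, 50.3% and 48.3%. Since 81 of the members passed the level through the IP alone, these medians and counts are partly fixed by the choice. Of the 53 models of the block with an Input mean of 10 CPM or more, the IP was higher for 50, 49 and 45. Outside the block it was higher for 4022, 3915 and 3709 of 8490 IDs chosen in the same way. In IP replicate 3, 3 members had no read, which allows up to 0.386 CPM for counting error. In Input replicate 3, 1 member had no read, which allows up to 0.249 CPM.

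The member with the highest level had 555, 555 and 735 CPM in IP replicates 1, 2 and 3. Its Input values were 157, 141 and 90.1 CPM. The groups stood far apart. On the log2 scale it rose by 2.12 ± 0.23 (SE; edgeR, adjusted p = 0.000452). The member second in level had 558, 424 and 251 CPM in the IP libraries and 80.6, 56.7 and 25.1 CPM in the Input libraries. In both groups replicate 1 was its highest library and replicate 3 its lowest. On the log2 scale it rose by 2.81 ± 0.45 (SE; edgeR, adjusted p = 0.00407). The member next in level had 410, 361 and 203 CPM in the IP and 125, 57.6 and 40.5 CPM in the Input. It rose by 2.02 ± 0.43 (SE; edgeR, adjusted p = 0.0172) on the log2 scale. The spread of these models between Input libraries was wide next to that of the fourth member, which had 51.3, 58.8 and 56.1 CPM in the Input and 114, 223 and 200.05 CPM in the IP. The member of rank 8 by level was even across libraries, with 157, 158 and 144 CPM in the IP and 20.6, 24.5 and 19.8 CPM in the Input. It also had the lowest adjusted p of the block, 0.000131 in edgeR's test, for a log2 fold change of 2.70 ± 0.24 (SE).

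The largest fold changes among the members called belonged to models of low Input level, which the rule partly fixes. A member low in the Input had to be high in the IP to reach a mean of 10 CPM. ENSMUSG00000103123.1 had 45.8, 43.7 and 32.3 CPM in IP replicates 1, 2 and 3 and 3.40, 3.79 and 1.82 CPM in the Input replicates. The lowest IP library stood well above the highest Input library. The difference was 3.64 ± 0.57 (SE; edgeR, adjusted p = 0.00365) on the log2 scale. ENSMUSG00000102461.1 had 36.4, 26.6 and 29.4 CPM in the IP and 1.09, 3.79 and 2.82 CPM in the Input. Here the difference was 3.46 ± 0.70 (SE; edgeR, adjusted p = 0.0128) on the log2 scale. The call of the first held in all 15 alternatives that refit the data, with adjusted p-values up to 0.0244. That of the second was lost without IP replicate 1, without Input replicate 1 and without Input replicate 3, where its adjusted p-values in edgeR's test were 0.0587, 0.0596 and 0.0689. Both passed the level of 10 CPM through the IP alone, so their direction is no result, and the calls and refits do not add to it.

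Read over all members, the fitted log2 fold changes ran from -0.72 to 3.64, with a median of 2.23 and quartiles of 1.65 and 2.60. All 132 were tested among 15615 genes, and the 60 called make up 45.5%. Over all genes tested, 4.33% were called enriched and 6.11% depleted. Over the other IDs at 10 CPM or more, 614 of 8525 tested (7.20%) were enriched and 882 (10.3%) depleted, with a median log2 fold change of -0.06. Each of the 60 members called had a log2 fold change of at least 1.53. No member was called depleted, and no member lower in the IP reached an unadjusted p of 0.05 in edgeR or in DESeq2, where the count was also 0. The IP libraries lay above all Input libraries for 100 members (75.8%), against 15.2% of all genes tested and 22.5% of the other IDs at that level. They lay below them for 0 members, against 21.4% and 24.4%. These shares describe models chosen partly by their level in the IP, and no test was made over the list. Without IP replicate 1 or 2, 31 or 37 members were called, without Input replicate 2 or 3, 30 or 29, and with library sizes from all reads 33, while DESeq2's Wald test called 97. The background moved as well, with 1.48% of the other IDs enriched with library sizes from all reads and 12.3% in DESeq2.

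**Figure D3:**
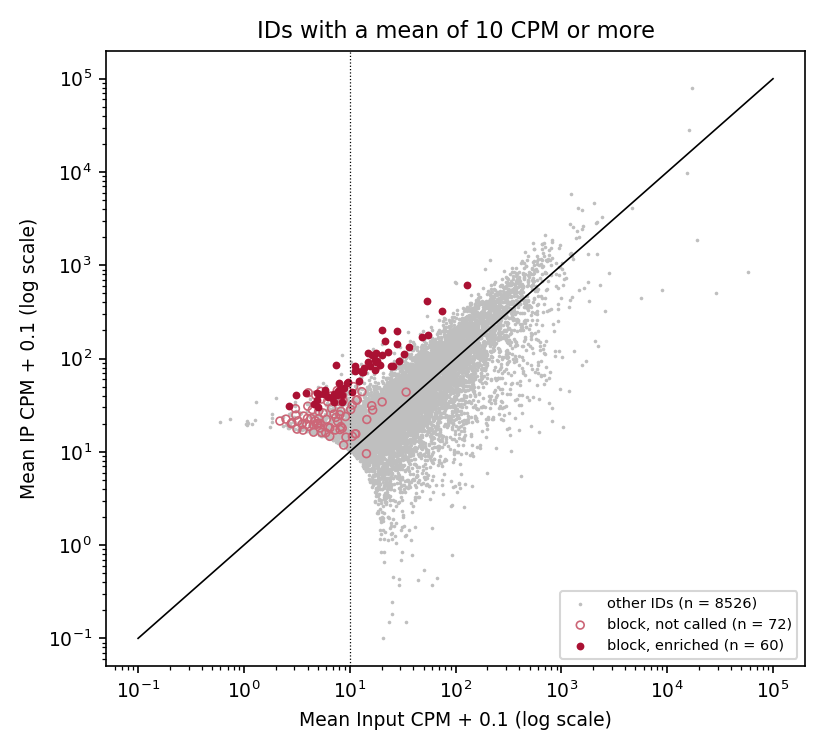
Mean IP level against mean Input level (CPM + 0.1, log axes) for all IDs with a mean of 10 CPM or more. Grey points are the other 8526 IDs, red filled points the 60 enriched members and open red circles the 72 members not called. The solid line marks equal levels and the dotted line an Input mean of 10 CPM, and the members form a band above the solid line that reaches to both sides of the dotted one.

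Models were therefore also taken by their Input level alone, a choice that favours a high Input and not a high IP. There were 53 models of the block with an Input mean of 10 CPM or more, of which 35 (66.0%) were enriched and 0 depleted. Their median log2 fold change was 2.02, and 50 of the 53 lay above 0. Outside the block 8490 IDs met this condition, of which 6.84% were enriched, with a median of -0.21. Of the 18 models with an Input mean of 20 CPM or more, 16 were enriched, against 8.37% of 6582 other IDs. Of the 35 models at 10 to 20 CPM in the Input, 19 were enriched, against 1.57% of 1908 other IDs. At 5 to 10 CPM in the Input, 18 of 69 models were enriched, against 1.09% of the other IDs tested, and the median log2 fold change was 1.55 against -0.23. The block thus lay above the other IDs in each of these classes of Input level.

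The share of members called was higher at higher level. In the class of 50 CPM or more all 24 members were enriched, against 14.3% of 3842 other IDs. From 20 to 50 CPM 33 of 53 members were enriched, against 2.05%, and from 10 to 20 CPM 3 of 55, against 0.59%. The median log2 fold change in these classes was 2.24, 2.38 and 1.91 for the members and 0.10, -0.22 and -0.25 for the other IDs. These classes use the mean that chose the members, so a fold change in the lower classes is partly fixed by the choice, and the values are a description. Members not called had a median log2 fold change of 1.91, and 60 of the 72 stood at 1 or more. Their median level was 13.8 CPM, against 43.4 CPM for those called, and the median coefficient of variation of their IP values was 67.3%, against 32.7%. A missing call at low level does not show that a model was not enriched.

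**Figure D4:**
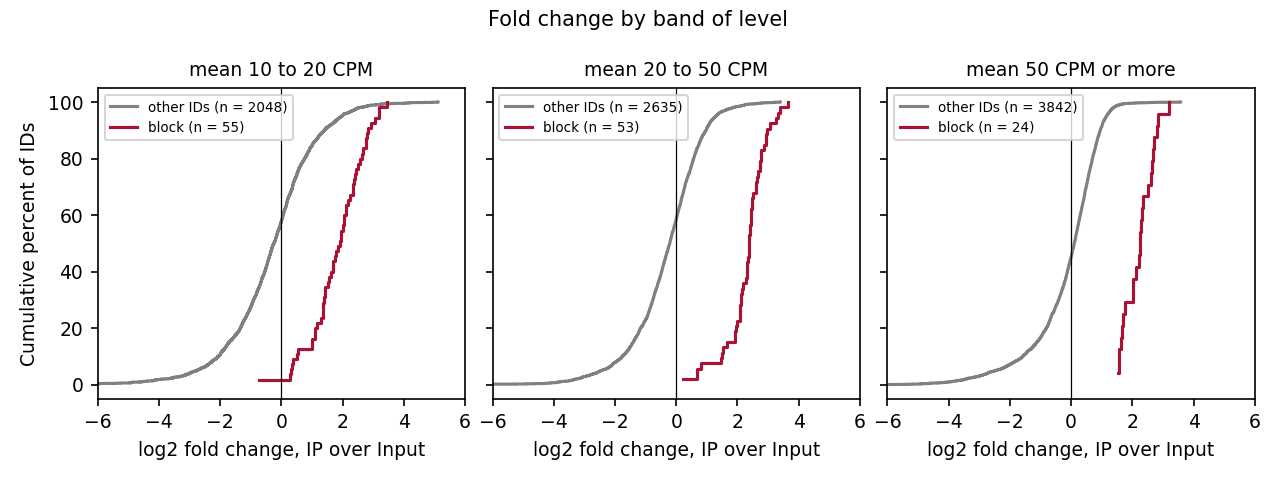
Cumulative percent of IDs against the fitted log2 fold change of IP over Input, in 3 bands of mean level. The red line is the block (n = 55, 53 and 24) and the grey line the other IDs tested (n = 2048, 2635 and 3842), some of which lie to the left of the axis. The red line stands to the right of the grey one in each band, with medians of 1.91, 2.38 and 2.24 against -0.25, -0.22 and 0.10.

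Few members went against the rest, which the choice partly fixes, since 81 of the 132 passed the level through the IP alone. Of the 53 models of the block with an Input mean of 10 CPM or more, 3 lay below 0, the lowest at a log2 fold change of -3.08. The member of rank 36 by level had 26.5, 50.5 and 53.7 CPM in the IP and 33.5, 43.2 and 25.4 CPM in the Input. The groups overlapped, and the log2 fold change of 0.23 ± 0.39 (SE) did not pass edgeR's test (adjusted p = 0.823). It is among the 5 members with a revised model. The member of rank 117 was the 1 with a lower mean in the IP, at 7.44, 8.03 and 12.9 CPM, against 7.28, 11.4 and 24.2 CPM in the Input. Its log2 fold change of -0.72 ± 0.75 (SE) did not pass edgeR's test either (adjusted p = 0.667). It is also the 1 member that reached the level through the Input alone.

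The spread between Input libraries was larger for the members than for other IDs. The median coefficient of variation over the 3 Input libraries was 39.6% for the members and 15.7% for the other IDs at 10 CPM or more, and over the 3 IP libraries it was 45.6% and 36.9%. Since the members are lower in the Input than other IDs of equal mean, the comparison was also made in classes of Input level. With an Input mean of 20 CPM or more, the Input value was 29.1% for the block and 13.7% for the other IDs. This class is open at the top and not at equal level, with median Input means of 28.7 CPM for the block and 60.4 CPM for the others. At 10 to 20 CPM, with median Input means of 13.0 and 14.2 CPM, it was 30.5% and 24.6%. Over the IP libraries it was 30.1% for the block and 31.7% for the other IDs in the upper class. In the lower one it was 44.2% and 72.0%. These IP values are not at equal IP level. In the upper class the median IP mean was 138 CPM for the block and 57.1 CPM for the other IDs. In the lower one it was 71.1 and 12.3 CPM. Input replicate 1 was the highest Input library for 92 of the 132 members (69.7%) and for 35.7% of the other IDs. Input replicate 3 was the lowest for 80 members. The members' share of gene-assigned reads was 0.212%, 0.155% and 0.123% in Input replicates 1, 2 and 3, and the weak models of the block did not share this order, at 0.117%, 0.126% and 0.116%. Reads outside genes made up 49.6%, 51.6% and 50.1% of the same libraries. The number of gene IDs with a read was 33344, 29354 and 26250 in Input replicates 1, 2 and 3. That of block IDs with a read was 1421, 1140 and 913. Whether any of these values bears on the members' order was not tested. Without Input replicate 1 the ratio of IP to Input share was 5.53 in place of 4.71, and without Input replicate 3 it was 4.19.

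In the IP the high library changed from model to model. IP replicate 1 was highest for 53 members, replicate 2 for 35 and replicate 3 for 44. In 11 members a single IP library held over 70% of the sum of the 3 IP values, which was replicate 1 for 4, replicate 2 for 2 and replicate 3 for 5, and 0 of these were called. Among the other IDs at 10 CPM or more 6.05% had such a library.

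The block was also divided into 3 ranges of 1000 numbers, which were alike in direction. The 41 members numbered 102000 to 102999 had a median log2 fold change of 2.32, the 52 numbered 103000 to 103999 one of 2.13, and the 39 numbered 104000 to 104999 one of 2.11. Of these, 25, 24 and 11 were enriched (61.0%, 46.2% and 28.2%), against 7.20% of the other IDs at 10 CPM or more. The members of the last group were also lower, with a median level of 16.2 CPM against 24.8 and 23.4 CPM. All these members were chosen by a mean that includes the IP, so their shared direction is partly fixed by the choice. Over all IDs tested in the 3 ranges, with no condition on mean level, the median log2 fold changes were 1.54, 1.63 and 1.34. Of those IDs 20.5%, 17.0% and 8.66% were enriched, against 4.33% of all genes tested.

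The block was then set among all other ID numbers, with no condition on level. All IDs but ENSMUSG00000102869 were put in 118 bins of 1000 numbers, and the 98 bins with at least 50 genes tested were compared. The share of gene-assigned reads was 3.42 times higher in the IP for the bin that starts at 102000, 3.58 times for that at 103000 and 3.33 times for that at 104000. With ENSMUSG00000102869 put back, the ratio of the first was 3.29. Of the 83 bins compared under 102000, 2 had a ratio above 2. These were the bins at 97000 and 86000, with ratios of 4.37 and 3.46. When the ID with the most reads was left out of each bin, they fell to 1.52 and 1.08, and the highest such ratio among these 83 bins was 1.53. The bins of the block kept ratios of 3.11 to 3.60, so that their reads did not come from single IDs. The 12 bins compared from 105000 upwards lay between 1.54 and 2.34. Of the 20 bins with fewer than 50 genes tested, the bin at 101000, next to the block, had a ratio of 3.04 and of 1.69 without its top ID, that at 92000 had 1.77 and 2.34, and that at 117000 had 1.07 and 1.02.

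**Figure D5:**
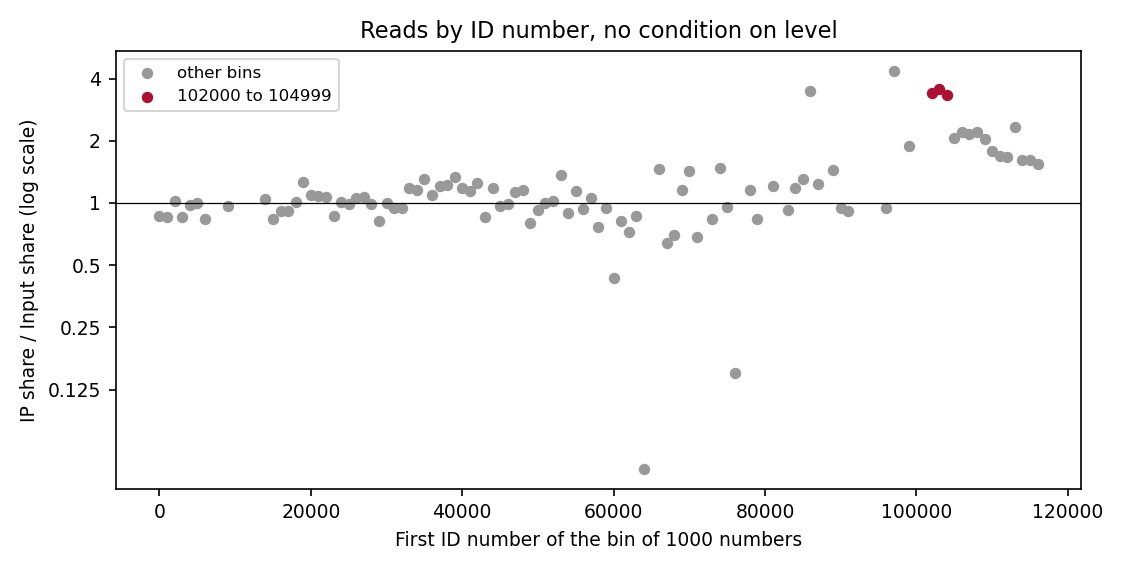
Ratio of the mean IP share to the mean Input share of gene-assigned reads (log axis) for the 98 bins of 1000 ID numbers with at least 50 genes tested, against the first number of the bin. The 3 red bins of the block lie at 3.33 to 3.58 and the 12 bins to their right at 1.54 to 2.34, while the 83 bins shown under 102000 have a median of 1.00.

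IDs numbered 105000 and up were the nearest comparison for the members at equal level. Of 236 such IDs at 10 CPM or more, 44 (18.6%) were enriched and 3 depleted, with a median log2 fold change of 1.72. For the 71 IDs numbered 97000 to 101999 these counts were 14 and 5, with a median of 0.83. For the 8217 IDs tested under 97000 the median was -0.09. Of the IDs numbered 105000 and up, 93.6% stood at version 1. Over all IDs outside the members at this level, the 374 at version 1 had a median log2 fold change of 1.43 and 62 (16.6%) were enriched, while the 8151 tested with a revised model had a median of -0.09 and 6.77% were enriched. A higher median in the IP was thus shared by other late-numbered and unrevised models and was not particular to the block. The difference between the block and these other late models was not tested.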

How the data were processed

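RNA bound to YTHDF2 and total RNA of the lysate were sequenced from sorted tumour Treg cells, in 3 IP and 3 Input libraries from a kit that keeps strand. The deposited files hold raw counts of reads per Ensembl gene ID. The tools behind these counts are, per the submitters' processing notes, HISAT2 2.1.0, Trimmomatic 0.39, HTSeq and DESeq2, on build mm10, in no stated order. For the annotation release and the strand setting, the sources used here give nothing. The files held 6847731 to 14704617 gene-assigned reads per library, and 92 spike-in IDs and 5 summary categories were left out.

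The members and lists were chosen with earlier results of these data known. CPM was computed on gene-assigned reads. Genes were tested with edgeR 4.0.16 in R 4.3.3 (filterByExpr, TMM, robust quasi-likelihood F-test, group as the only term, two-sided, Benjamini-Hochberg over all 15615 genes tested, threshold 0.05), and standard errors come from the F statistics. IDs printed are the first 2 enriched members by log2 fold change whose groups do not overlap, and no member was depleted. Other members are given by rank, since no table names them. Marker lists and the naming of neighbouring genes were not applied. Libraries with equal number were not taken to pair, since the labels do not say that they do. Their deviations from the group means over genes tested correlated at 0.091, 0.022 and 0.024. For IP and Input libraries of unequal number the correlations were lower, at -0.045 to 0.016. Alternatives were other scalings, filters and levels, DESeq2 1.42.0, limma 3.58.1 voom, a test against 1.5-fold, a replicate block and each library left out.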

Additional observations from a re-analysis of the deposited data

Results flagged for a closer look

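Reads in no annotated feature lie outside the gene counts. They made up 71.7% of all reads in an IP library on average and 50.4% in an Input library, and every IP library lay above every Input library. This result was picked out because a signal outside the main measurement was higher in the IP than in the Input, which served as the control.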

How the results depend on the processing

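All 60 members called kept a log2 fold change above 0 in the 9 other scalings, filters and tests, and 0 members were called depleted in any alternative run. They had been called on the same data with a log2 fold change of at least 1.53, so a kept sign is no check. Of these 60, 25 had passed the level through the IP alone, and calls kept in refits do not add to their direction. Of the 60, 26 were called in each of the 15 refits. Enriched members numbered 33 with library sizes from all reads, 97 with DESeq2, 38 in the test against 1.5-fold and 35 for the 53 models with an Input mean of 10 CPM or more. Leaving out 1 library gave 29 to 81. The share of the other IDs at 10 CPM or more called enriched moved too, from 7.20% to 1.48% with library sizes from all reads, 12.3% with DESeq2, 1.96% in the test against 1.5-fold and 1.86% to 10.4% with 1 library left out. A replicate block gave 63, and 56 of the 60 members were called under it. The median log2 fold change of the members was 1.70 with library sizes from all reads and 1.91 to 2.42 with 1 library left out. Its distance to the other IDs was 2.06 to 2.56 with 1 library left out and stayed within the spread of same-numbered libraries in all 23 alternatives. A change of scaling moves both medians alike, so the runs that changed only the scaling could hardly move this distance and are no check of it. The ratio of IP to Input share was 2.99 over all reads, 4.19 to 5.53 with 1 library left out, and, in choices made after seeing the data, 3.44 for the whole block and 2.10 against reads in no annotated feature. The median of all genes moved by 0.20 with upper quartile factors, 0.12 with total counts, -0.53 with library sizes from all reads, -0.45 with limma voom and -0.38 with the replicate block, against the fit with TMM factors. Without IP replicate 1 or 2 it moved by -0.15 or -0.11. Of the 132 members, 124 lay above 0 with total reads as library sizes, with limma voom 125 and with the replicate block 126, against 131. Library sizes from all reads lower every fold change by arithmetic, since gene-assigned reads made up 24.8% of all reads in the IP and 38.9% in the Input. What lies behind the other shifts was not tested. By construction, the 1.5-fold test requires larger changes and a choice by Input level leaves fewer models. For all 6 libraries, the correlation of deviations was highest with the library of equal number, which is a hint from the data and not from the labels. The low counts limit what can be called: of 55 members at 10 to 20 CPM, 3 were called.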
